A study of Homo sapiens with 4 samples.

Results

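The miR-7 family of human cells is made from 3 genes, MIR7-1, MIR7-2 and MIR7-3, and a further miRNA gene, MIR3529, is annotated on the opposite strand of MIR7-2. These 4 genes were examined among the 7062 small RNA features, 1870 of them miRNA features, counted in HEK293T cells, a human embryonic kidney line named HEK293 in some of the labels. These cells had been transfected with RPB1, the catalytic subunit of RNA polymerase II (Pol II), carrying a C-terminal domain (CTD) of 52 heptads. The CTD was wild-type in 52X WT, and in 52X T4A its heptads had alanine in place of threonine-4. Both groups received 1.5 µg of plasmid per well by transient transfection followed by 72 h of α-amanitin at 2.5 µg/ml, so that surviving cells depended on the transfected enzyme and no untreated or untransfected library was compared. Each group had 2 libraries, described in the labels as biological replicates, of single-end 50 bp reads from total RNA. The series asked how small RNA levels differ between the T4A and the wild-type CTD. The members were chosen by gene symbol, after the near-equal summed counts of the MIR7 genes had been seen in an earlier pass over these data, so those counts are given as a description. Whether the MIR3529 counts had also been seen by then is not recorded, so its difference between the groups is not independent evidence. All 4 members passed the filter on low counts.

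A miRNA gene is transcribed, usually by Pol II, into a long primary RNA that folds into a hairpin. The enzymes Drosha and Dicer cut out the hairpin and then its loop, leaving a short duplex with an arm from the 5′ side (5p) and an arm from the 3′ side (3p), and Argonaute proteins usually keep one of them. The bases near the 5′ end of the kept arm, the seed, pair with target mRNAs. miR-7-5p is an ancient, conserved miRNA known for its expression in neurons and endocrine cells and for its binding by the circular RNA CDR1as. When the opposite strand of a miRNA gene is transcribed as well, its RNA can fold into a hairpin of its own with different seeds.

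MIR7-1 (ENSG00000284179.1) occupies chr9:83969748-83969857, minus strand (hg38), within HNRNPK, which encodes an RNA-binding protein. In GENCODE v44lift37 it is on the same strand as HNRNPK and overlaps an annotated exon of at least 1 of its transcripts. MIR7-2 (ENSG00000207703.1) occupies chr15:88611825-88611934, plus strand, and MIR3529 (ENSG00000283484.1) lies inside that span at chr15:88611847-88611924, minus strand. The RefSeq span of AEN, a protein-coding gene of the plus strand, covers both of them. MIR7-3 (ENSG00000207630.1) occupies chr19:4770670-4770779, plus strand, in an intron of its long noncoding host gene MIR7-3HG. No listed feature lies opposite MIR7-1 or MIR7-3.

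The mature arms explain which reads can be assigned to a single gene and which cannot, and are shown 5′ to 3′ from RefSeq (GRCh38.p14) with the seed, bases 2 to 8, in capitals.
hsa-miR-7-5p: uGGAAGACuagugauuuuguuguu
hsa-miR-3529-3p: aACAACAAaaucacuagucuucca
hsa-miR-7-1-3p: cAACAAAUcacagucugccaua
hsa-miR-7-2-3p: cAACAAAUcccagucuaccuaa
hsa-miR-3529-5p: aGGUAGACugggauuuguuguu
The arm miR-7-5p is identical at MIR7-1 and MIR7-3 and stands once in the MIR7-2 hairpin, at positions 32 to 55 (chr15:88611856-88611879). The arm miR-3529-3p is its exact reverse complement, so the 2 strands of the chromosome 15 locus carry the same duplex read in opposite directions and miR-7-5p and miR-3529-3p have different seeds. The 3p arms of MIR7-1 and MIR7-2 share a seed and differ at 4 of 22 bases, A10C, G17A, A20U and U21A, counted from the 5′ end of miR-7-1-3p with its base first. The arm miR-3529-5p lies opposite hairpin positions 70 to 91, facing 20 bases of miR-7-2-3p, and no match to it stands in the MIR7-3 hairpin. Among 2545 mature entries searched, no gene outside the family shared the seed of miR-7-5p, of miR-3529-3p or of the 3p arms. MIR379 shared the seed of miR-3529-5p and had 50 and 93 counts for 52X T4A against 29 and 75 for 52X WT.

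The hairpins of MIR7-2 and MIR7-3 show how little sequence the loci share beyond that arm, which is in capitals here.
MIR7-2 hairpin: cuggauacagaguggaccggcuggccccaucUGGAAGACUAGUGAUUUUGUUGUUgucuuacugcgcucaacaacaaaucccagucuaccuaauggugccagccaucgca
MIR7-3 hairpin: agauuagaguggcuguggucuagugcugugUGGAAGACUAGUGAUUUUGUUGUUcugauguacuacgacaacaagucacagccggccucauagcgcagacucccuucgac
Both are 110 bases long, and a global alignment matched 78 of 118 columns, or 66.1%. Their longest common run was the 24 bases of miR-7-5p, with no further base on either side. A read of miR-7-5p therefore matches every MIR7 locus equally well, whereas reads of the 3p arms or of the loops can be told apart.

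Total counts assigned to features were 16180790 and 27370127 for 52X T4A and 16195105 and 19159242 for 52X WT, and miRNA features took 63.5% to 75.3% of them. Levels are given as CPM, counts scaled to a common depth with TMM factors. Among miRNAs typical of other cell types, 5 of muscle summed to 81.6 to 96.5 CPM in 52X T4A against 30.5 to 33.1 in 52X WT. Most of that sum was MIR1-1 and MIR1-2, copies with near-equal counts. If shared reads are entered at every copy, it holds them more than once. A list of 5 of blood summed to 2.53 CPM in each 52X T4A library against 0.822 to 1.75 in 52X WT. The liver miRNA MIR122 was under 1 CPM in every library. The 11 miRNAs named as typical of HEK293T, led by MIR10A and MIR10B, summed to 236206 and 250232 CPM for 52X T4A and to 282655 and 256548 for 52X WT. These sums, mostly MIR10A and MIR10B, were lower in both 52X T4A libraries. All 11 were tested and none was called (0.135% of all tested features were), and their median log2 fold change was −0.48, beside −0.05 over all features tested. At an unadjusted p below 0.05 in edgeR, 3 of them were lower in 52X T4A, MIR19A, MIR20A and MIR92A1, and none was higher, where 6.28% of all tested features were lower at that level. These 3 lie in the same gene cluster as MIR17, MIR18A and MIR19B1, so the 11 are not independent. MIR182 went the other way, with groups that did not overlap (log2 fold change 0.43, SE 0.207). MIR183 had 0.20 (SE 0.209) with overlapping groups, and all other listed values were negative.

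The miR-7 genes were among the most abundant miRNA features and their levels overlapped between the groups. MIR7-1 stood at 12614 and 11954 CPM for 52X T4A, against 12984 and 11822 for 52X WT. The groups overlapped, and each held one of the higher and one of the lower libraries. The 52X T4A mean was 12284 ± 466 CPM and the 52X WT mean 12403 ± 822 (SD, n = 2). MIR7-1 took 1.16% to 1.38% of all counts of a library. By level per annotated length, MIR7-1, MIR7-3 and MIR7-2 held ranks 16, 17 and 18 among the 1870 miRNA features, of which 1270 had any count. Whether counts scale with annotated length was not tested. If shared reads are entered at every locus, these ranks rest largely on the same reads.

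The log2 fold change of MIR7-1 between 52X T4A and 52X WT was −0.01 (SE 0.184), and 2 standard errors on either side spanned −0.38 to 0.35. MIR7-2 and MIR7-3 gave −0.01 as well, with the same error, and none was called at an FDR below 0.05 with a fold change above 1.5 (edgeR quasi-likelihood test, Benjamini-Hochberg adjusted p 0.986 for each). Of the 1480 features tested, 2 were called, or 0.135%. The sign of the MIR7 value depended on the scaling, at 0.16 with library size alone, and over 13 alternatives per locus it stayed between −0.08 and 0.16 with no call. As the libraries were made from whole cultures, a change in the share of cells that make a miRNA and a change in its level per cell cannot be told apart.

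**Figure D1:**
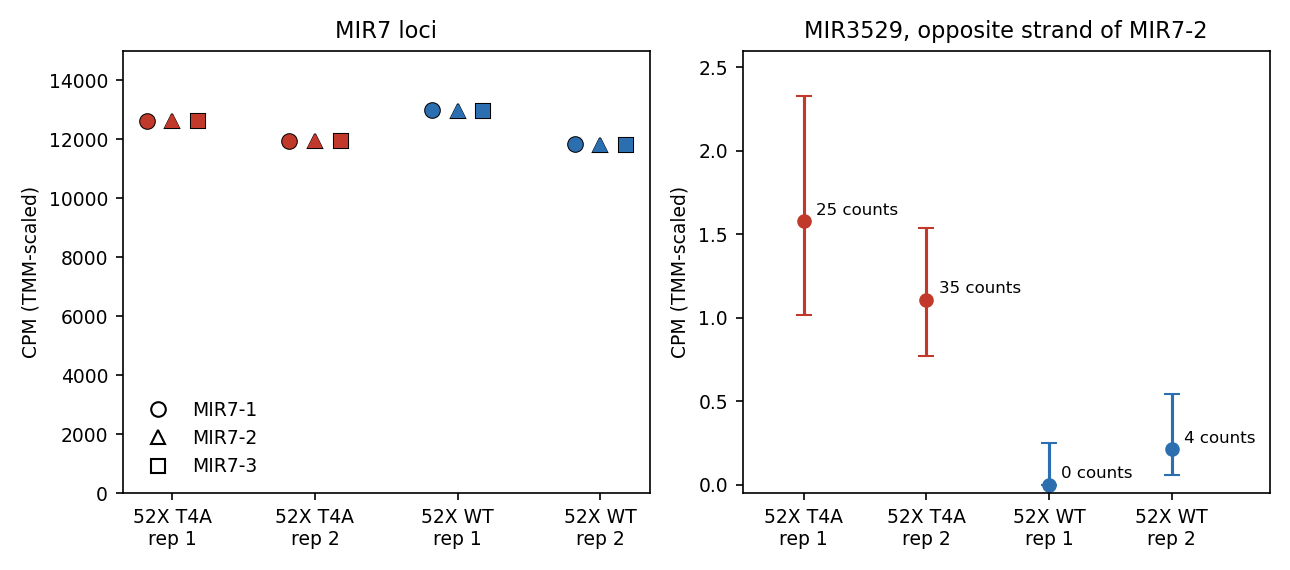
CPM of the MIR7 loci (left) and of MIR3529 (right) in each library, 52X T4A in red and 52X WT in blue. The MIR7 symbols lie on top of each other in level, between 11809 and 12984 CPM with the groups overlapping, while MIR3529 was at 1.11 and 1.58 CPM in 52X T4A and at 0 and 0.212 in 52X WT. Bars on the right are exact 95% Poisson intervals of the count.

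The MIR7 loci cannot be treated as separate measurements. In 52X T4A replicate 1 the counts were 199694 for MIR7-1, 199520 for MIR7-2 and 199528 for MIR7-3. In 52X T4A replicate 2 they were 377534, 377154 and 377171 in the same order. In 52X WT replicate 1 they were 189519, 189349 and 189365, and in 52X WT replicate 2 they were 222608, 222356 and 222375. Independent counts of this size would differ with an SD equal to the square root of their sum, between 615 and 869 counts here. The observed differences were 0.0127 to 0.437 of that SD in all 12 combinations of a library and a pair of loci. How reads with several matches were entered is not given in the sources used here.

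If shared reads are entered at every locus they cancel in a difference between loci, which leaves the reads of one locus alone minus those of the other alone. MIR7-1 exceeded MIR7-3 by 166 and 363 counts for 52X T4A, against 154 and 233 for 52X WT. This excess was 0.0813% to 0.105% of the MIR7-1 count, a small remainder of its reads. Scaled by depth it was 10.5 and 11.5 CPM for 52X T4A, against 10.6 and 12.4 for 52X WT. The groups overlapped in this excess, with means of 11 ± 0.707 and 11.5 ± 1.27 CPM (SD, n = 2).

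MIR7-1 likewise exceeded MIR7-2 by 174 and 380 counts for 52X T4A, against 170 and 252 for 52X WT. Between MIR7-3 and MIR7-2 the difference was far smaller, at 8 and 17 counts for 52X T4A against 16 and 19 for 52X WT, always with MIR7-3 higher. In CPM that was 0.505 and 0.538 for 52X T4A against 1.1 and 1.01 for 52X WT, so the groups did not overlap and 52X T4A was lower. More reads of MIR7-2 alone and fewer of MIR7-3 alone would give the same number and cannot be told apart, and with 2 libraries a group an exact permutation test cannot go below a p of 0.333.

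**Figure D2:**
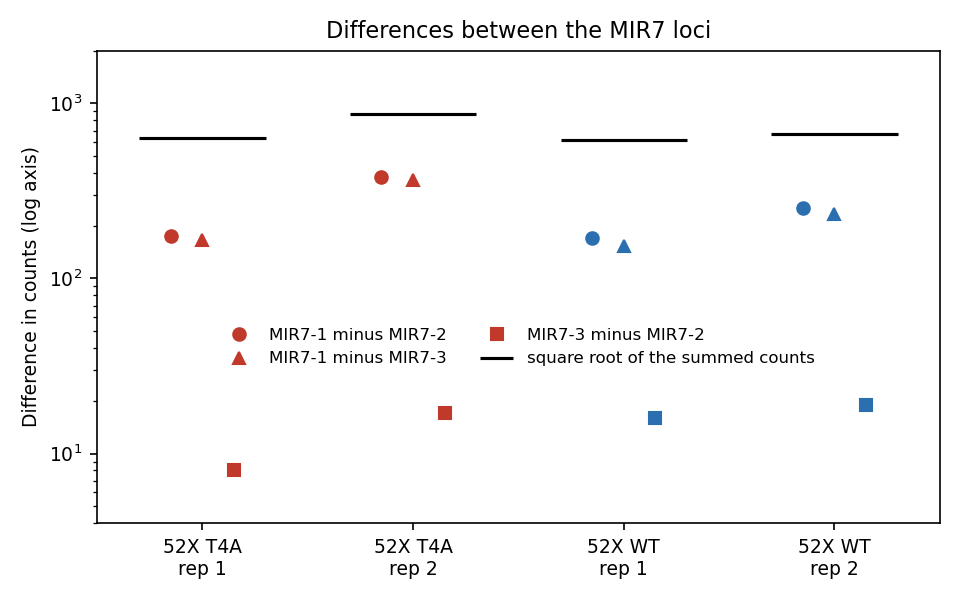
Differences in counts between pairs of MIR7 loci in each library, on a log axis, with 52X T4A in red and 52X WT in blue. Black lines mark the square root of the summed counts, 615 to 869, the SD that independent counts would have. MIR7-1 lay 154 to 380 counts above the others, MIR7-3 lay 8 to 19 above MIR7-2, and every difference was under its line.

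Near-equal counts were found for some, but not most, of the mature arms that other miRNA genes share. Arms were counted, so loci that share both arms, such as the MIR9 loci and the MIR512 pair, entered once for each arm. Of 33 arms found at 2 or more listed loci and averaging 100 counts or more, 15 (the MIR7 pair among them) had loci within 1% of each other in every library. Differences over 50% were reached by 2 of them, miR-548ag with up to 71.3% between MIR548AG1 and MIR548AG2 and miR-125b-5p with up to 56.6% between MIR125B1 and MIR125B2, both named after their values were seen. The MIR7 pair sharing miR-7-5p in the table, MIR7-1 and MIR7-3, differed by at most 0.105%. MIR103A1 and MIR103A2 differed by at most 0.109%, MIR92A1 and MIR92A2 by at most 0.243%, MIRLET7A1 and MIRLET7A3 by at most 0.318%, and the 3 MIRLET7A loci together by up to 2.65%.

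On the opposite strand of the chromosome 15 locus, the MIR3529 values were higher in 52X T4A on few reads and without a call. In 52X T4A, MIR3529 had 25 and 35 counts, against 0 and 4 in 52X WT. The groups did not overlap, and 52X T4A replicate 1 and 52X WT replicate 1, which had nearly the same depth, gave 25 and 0. These were 1.58 and 1.11 CPM for 52X T4A against 0 and 0.212 for 52X WT, or means of 1.34 ± 0.333 and 0.106 ± 0.15 (SD, n = 2). The exact Poisson intervals, which cover counting error only, ran from 16.2 to 36.9 and from 24.4 to 48.7 counts in 52X T4A, up to 3.69 in 52X WT replicate 1 and from 1.09 to 10.2 in 52X WT replicate 2. No 52X WT interval reached those of 52X T4A.

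Per kilobase of feature, the level of MIR3529 in 52X T4A was 17.2 ± 4.27 CPM, against 111568 ± 4250 for MIR7-2 on the other strand (SD, n = 2). It ranked 557 among the 1870 miRNA features by level per length. As miR-3529-3p matches the opposite strand of every MIR7 locus and a feature is listed there on chromosome 15 alone, its reads could have come from any of the 3 loci, whereas reads of miR-3529-5p point to chromosome 15. The tables do not separate the arms.

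MIR3529 had a fitted log2 fold change of 3.42 (SE 0.787), the highest of the 1480 tested features, but missed the call threshold (adjusted p 0.2, edgeR with Benjamini-Hochberg). Its unadjusted p of 0.00168 in that model ranked 11 among all features tested. At an unadjusted p below 0.05 there were 59 features higher in 52X T4A, 3.99% of those tested. Groups that did not overlap with 52X T4A higher were found for 18.9% of tested features, so non-overlap by itself was common. MIR3529 passed the filter on low counts through its 52X T4A libraries alone, and a feature that enters in this way had to be higher there. From summed counts of 60 and 4, the depth-scaled ratio of 52X T4A to 52X WT was 10.6, with an exact 95% interval of 3.92 to 40.1 that covers counting error only.

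Features of similar abundance are set beside that change as a description. Among 427 tested features with summed counts from 32 to 128, the median log2 fold change was 0.05 and values ran from −3.15 to 3.42, the upper end being MIR3529 itself. In this class 76 features, or 17.8%, had groups that did not overlap with 52X T4A higher, and 3, MIR3529 included, had a 52X WT library at 0. The class limits were set after the values had been seen, and MIR3529 had passed the filter through its 52X T4A libraries alone. Its place in the class is therefore not independent support.

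The call for MIR3529 turned on the processing. It was called in 4 of 13 alternatives, with adjusted p-values from 0.000543 to 0.296 over all of them. With library size alone the edgeR adjusted p was 0.0177, and with no filter on low counts it was 0.000643. In DESeq2 it was 0.121. The library 52X WT replicate 2 held all the 52X WT counts. Without it the 52X WT group was at 0, and the log2 fold change of 7.77 depended on the prior count. The 52X T4A mean of 1.34 CPM was 6.54 times the level of 3 counts in the 52X WT library that remained. That level was taken as the limit of a count of 0. The value 6.54 leaves out the counting error of 52X T4A and is not a lower bound. Without 52X WT replicate 1 the log2 fold change fell to 2.50 and the edgeR adjusted p was 0.114. The direction was the same, 52X T4A higher, in all 13, which are refits of the same libraries. With 25 and 35 counts against 0 and 4, a refit could hardly turn the sign, so this is no added support.

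**Figure D3:**
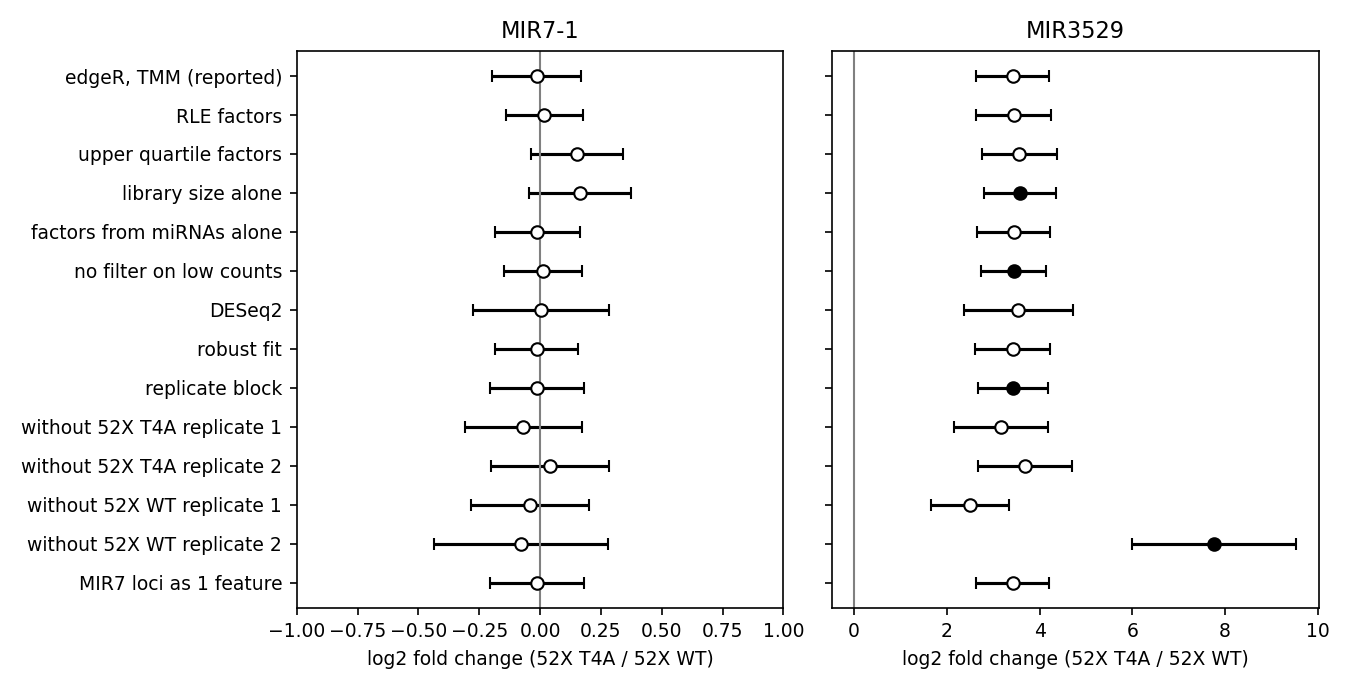
Log2 fold changes of MIR7-1 (left) and MIR3529 (right) with their standard errors in the reported fit and in the 13 alternatives; filled symbols mark an adjusted p under 0.05. MIR7-1 stayed near 0 in every fit, while MIR3529 lay between 2.50 and 7.77 and was filled in 4 fits. The value 7.77 is against a group with 0 counts and depends on the prior count.

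Muscle miRNAs had higher values in 52X T4A as well. Of the 5 listed, 4 were tested, and all 4 were higher at an unadjusted p below 0.05 with none called, where 3.99% of all features tested were higher at that level and 0.135% were called. MIR1-1, which is typical of heart and skeletal muscle, had 738 and 1259 counts for 52X T4A against 220 and 309 for 52X WT, a log2 fold change of 1.46 (SE 0.304, adjusted p 0.186 in edgeR). MIR1-1 and MIR1-2, like MIR133A1 and MIR133A2, are copies with near-equal counts, so the 4 are not independent. The untested MIR206 had 30 and 6 counts for 52X T4A against 1 and 1 for 52X WT. No listed muscle or blood miRNA was at 0 in all libraries. MIR150 of the blood list, singled out after its values were seen, had a log2 fold change of 1.73 (SE 0.555, adjusted p 0.348 in edgeR). The rest of that list did not follow it clearly. MIR142, also tested, had 0.73 (SE 0.579). Its groups did not overlap but nearly touched, at 0.884 and 0.538 CPM for 52X T4A against 0.274 and 0.531 for 52X WT. The groups overlapped in CPM for the untested MIR451A and MIR144, and MIR223 had 2 counts in every library. Whether these miRNAs had a part in the MIR3529 counts was not tested.

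The strands were then set against each other within each library, as the share of MIR3529 in the counts of both strands at the chromosome 15 locus. It was 0.0125% in 52X T4A replicate 1 (exact Clopper-Pearson 95% interval 0.00811 to 0.0185), and replicate 2 gave 0.00928% (0.00646 to 0.0129). Of the 52X WT libraries, replicate 1 had 0 of 189349 counts (0 to 0.00195). With 3 counts as the limit of a count of 0, its share was up to 0.00158%. The share in 52X WT replicate 2 was 0.0018% (0.00049 to 0.00461). Both 52X T4A shares lay above both 52X WT shares. These intervals and the limit of a count of 0 cover counting error only, not the spread between libraries. At the summed 52X T4A share, 19.7 and 23.1 counts would have stood in the 52X WT libraries, where 0 and 4 were found. This restates the same counts, of a feature that passed the filter through 52X T4A alone, and is not separate support. MIR7-2 had 7981 and 10776 reads for each read of MIR3529 in 52X T4A, and 55589 in 52X WT replicate 2. Dividing the MIR7-2 counts by 3, as for reads entered at 3 loci in equal parts, raised the mean share over the 4 libraries from 0.0059% to 0.0177%. The MIR3529 counts were left undivided there, although reads of miR-3529-3p could come from any of the 3 loci as well. Without 52X T4A replicate 1 the mean share was 0.00369%.

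The tables held 53 pairs of overlapping miRNA features on opposite strands, and MIR7-2 with MIR3529 had the highest count on its stronger strand. The next pairs, MIR103A2 with MIR103B2 and MIR103A1 with MIR103B1, had 949852 and 949110 counts on one strand and 0 on the other in all 4 libraries. Other pairs held practically the same count on both strands, such as MIR3158-1 and the feature opposite it, with 1782 and 1782 counts in 52X T4A replicate 1 and 1193 and 1193 in 52X WT replicate 1, a pair named after its values were seen. MIR3184, opposite MIR423, had 15 and 16 counts for 52X T4A against 13 and 11 for 52X WT. MIR374C, opposite MIR374B, had 10 and 20 counts for 52X T4A against 3 and 20 for 52X WT. MIR3074, opposite MIR24-1 and named after its values were seen, had 8.91 and 9.25 CPM for 52X T4A against 9.45 and 9.98 for 52X WT. In CPM, none of these weaker strands was higher in both 52X T4A libraries than in both 52X WT libraries. MIR3074 was lower in both 52X T4A libraries. MIR3184, higher there by raw count, was at 0.947 and 0.507 CPM for 52X T4A against 0.891 and 0.584 for 52X WT.

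Over the 9 other pairs with at least 100 counts on the stronger strand and a weaker strand below 10% of it, limits set after the values had been seen, the weaker strands summed to 10.7 and 10.5 CPM for 52X T4A against 10.6 and 11.7 for 52X WT. MIR3074 held most of that sum. The groups overlapped in this sum. In 1 of the 9 pairs the weaker strand was higher in CPM in both 52X T4A libraries than in both 52X WT libraries. It was MIR1295B, with 1 and 2 counts against 0 and 0, also named after its values were seen.

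Both strands were tested in 10 of the 18 pairs with at least 100 counts on the stronger strand. The log2 fold change of the weaker strand minus that of the stronger was within 0.5 of 0 in 8 of them and above 2 in 2 of them. The latter were MIR3529 at 3.44 and MIR203B, opposite MIR203, at 2.68. MIR203B, singled out here after its values were seen, had 101 and 233 counts for 52X T4A against 15 and 18 for 52X WT, and was called (log2 fold change 2.79, SE 0.381, edgeR adjusted p 0.0261). In 5 of the 8 pairs near 0 the weaker strand held over 45% of the counts of both strands, with nearly equal counts on each, so these pairs carry little information on the difference. The difference between strands was not tested.

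**Figure D4:**
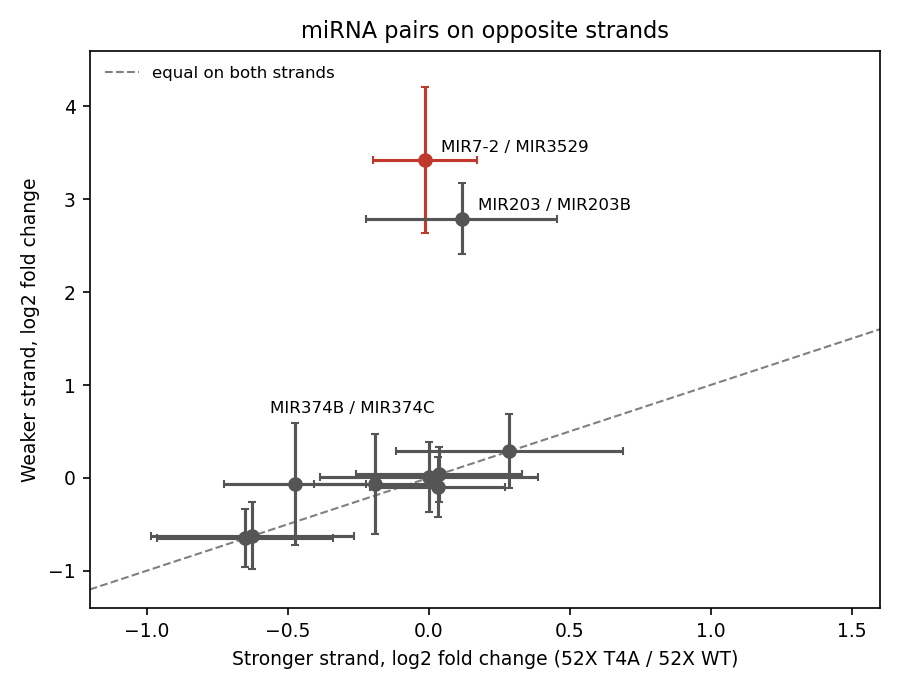
Log2 fold change (52X T4A over 52X WT) of the weaker strand against that of the stronger strand for the 10 pairs tested on both, with standard errors, and a dashed line where they are equal. MIR7-2 with MIR3529 (red) lies at −0.01 and 3.42 and MIR203 with MIR203B at 0.12 and 2.79, while the other 8 pairs lie within 0.5 of the line.

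The other miRNAs known for neurons and endocrine cells gave no call either. All 18 genes listed were found and 16 were tested, and none was called or had an unadjusted p below 0.05 in edgeR. Of all tested features 0.135% were called, and 3.99% were higher and 6.28% lower in 52X T4A at that unadjusted level. At such shares, finding none among 16 genes carries little information. Their median log2 fold change was −0.14, beside −0.05 over all tested features and −0.02 over 621 tested miRNA features. MIR375, an islet miRNA, had 1504 and 2839 counts for 52X T4A against 1233 and 2033 for 52X WT, a log2 fold change of −0.06 (SE 0.272). MIR9-1, a neural miRNA whose copies had near-equal counts, had a log2 fold change of −0.18 (SE 0.197). MIR124-1, the classic neuronal miRNA, was scarce, with 23 and 84 counts for 52X T4A against 58 and 41 for 52X WT. The list summed to 19281 and 17313 CPM for 52X T4A and to 17697 and 22285 for 52X WT, with the groups overlapping. The copies of MIR9, MIR218, MIR129 and MIR124 had near-equal counts, so the 16 tested genes are not independent. If shared reads are entered at every copy, the sum holds them more than once.

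The features most like MIR7-1 over the 4 libraries were found by the Euclidean distance of centred log2 CPM among 617 tested miRNA features, as a description. They were MIR3128 (distance 0.0543), MIR5587 (0.0712), MIR577 (0.0863), MIR22 (0.0964) and MIR1227 (0.0987), with log2 fold changes from −0.10 to 0.06. The highest of them, MIR577, was at 25.1 to 28.8 CPM, far under MIR7-1.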

How the data were processed

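Small RNA libraries of 2 groups of 2 were analysed. The authors deposited raw read counts per feature for each library, without normalization. The submitters' processing notes name cutadapt 4.6, Bowtie2 2.3.5.1, featureCounts 1.5.0 and the build hg38. Settings for strand and for reads with several matches, which decide the counts of copies, were not given in the sources used here. Names came from GENCODE v44lift37 by Ensembl identifier (MIR7-2, MIR7-3) or from an identical RefSeq GRCh38.p14 position (MIR7-1, MIR3529), and no coordinates were converted.

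Counts were filtered with filterByExpr (minimum count 10), scaled by TMM (factors 0.901 to 1.15) and tested over all features with the quasi-likelihood test of edgeR 4.0.16 in R 4.3.3 with Benjamini-Hochberg adjustment. The test was checked on simulated data. A call needed an FDR under 0.05 and a fold change above 1.5. The standard error is the log2 fold change divided by the square root of F. Depth was 16180790 to 27370127 counts. Library size, RLE, upper quartile and miRNA factors, no filter, DESeq2 1.42.0, a robust fit, a replicate block, the MIR7 loci as 1 feature and each library left out were alternatives. The rule for named genes took the members, sharers of a seed, the 5 opposite-strand pairs and the 5 copy families of highest count, the 5 profiles nearest to MIR7-1 and fixed lists of neuroendocrine and cell type miRNAs. The likeness measure added 0.5 to CPM. Members and lists were chosen with earlier results of these data known.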

Additional observations from a re-analysis of the deposited data

How the results depend on the processing

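The number of called features was 2 and became 9 with library size alone, 29 without a filter, 28 with DESeq2, 18 with the replicate block, 4 to 218 when a library was left out, and 0 with factors from miRNAs alone, where edgeR gave 143 features an unadjusted p below 0.05. The log2 fold change of MIR7-1, MIR7-2 and MIR7-3 turned from −0.01 to 0.018 with RLE factors, 0.16 with library size alone, 0.15 with upper quartile factors, 0.012 without a filter and 0.0026, 0.0027 and 0.0026 with DESeq2, and ran from −0.078 to 0.040 (MIR7-1) or 0.041 (MIR7-2, MIR7-3) over the fits leaving out a library. All of these lie within the standard error of 0.184. MIR3529 was called with library size alone (3.58), without a filter (3.44), with the replicate block (3.42, edgeR adjusted p 0.00197) and without 52X WT replicate 2, and ran from 2.50 to 7.77 over the fits leaving out a library. In those fits the lone library of a group is assumed to vary like the other group. The labels do not say that replicate numbers pair libraries. The deviations of same-numbered libraries from their group means correlated at 0.0946. With 2 libraries a group, both same-numbered pairs must give the same number, so this is a single value. The mean opposite-strand share of 0.0059% became 0.0177% with MIR7-2 counts alone divided by 3. It ran from 0.00369% (without 52X T4A replicate 1) to 0.00787% when a library was left out. The causes were not tested. MIR3529 had 0 to 35 counts a library, and the effect of depth was not tested.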
